A study of Bos taurus with 9 samples.

Results

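Hepcidin and the genes of its BMP-SMAD iron sensing pathway were followed in liver biopsies of lactating Holstein cows. The 10 genes were taken by symbol from the 28786 genes of the count table: hepcidin itself (*HAMP*), the ligand *BMP6*, the co-receptor *HJV*, the transferrin receptors *TFR2* and *TFRC*, the pathway targets *ID1*, *ATOH8*, *SMAD6* and *SMAD7*, and the iron exporter *SLC40A1*. Each was found once, and all 10 had enough counts to be tested in each comparison.

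The study held 3 groups of 3 cows with 1 library per cow. Heat stress (HS) cows were kept in daily cycles of high temperature and humidity, thermoneutral (TN) cows stayed in cool air and ate freely, and pair-fed (PF) cows stayed in cool air on a ration cut to the intake of the HS cows. By design, PF against TN cows therefore differed in intake, HS against PF cows in heat at a matched intake, and HS against TN cows in both. The groups also differed in their average days in milk, which the study gave as lowest for TN and highest for PF cows. No genetic alteration or drug separated the groups, the cows were lactating in all of them, and the ages of the animals were not given in the sources used here. A biopsy is whole tissue, so that a lower level of a transcript cannot be told apart from fewer cells of the type that makes it.

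Hepcidin is a small peptide hormone that hepatocytes secrete. It binds ferroportin, the product of *SLC40A1*, and causes its degradation, which keeps iron inside macrophages, enterocytes and hepatocytes. In the liver, sinusoidal endothelial cells release BMP6, which acts on hepatocyte BMP receptors with hemojuvelin (*HJV*) as co-receptor, and the SMAD proteins that are activated turn on *HAMP* together with *ID1*, *ATOH8* and the inhibitory *SMAD6* and *SMAD7*. Inflammation also induces *HAMP*, through interleukin 6 and STAT3.

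Levels are given in CPM, the count of a gene relative to its library size after TMM scaling, with group means ± SD over n = 3 cows. Pairs of groups were compared with the quasi-likelihood test of edgeR on raw counts. The FDR is the p-value after Benjamini-Hochberg adjustment across every gene tested in that pair, and a gene was called at an FDR under 0.1 with a fold change over 1.5. The log2 fold change (log2FC) is given with its standard error (SE). The totals ran from 16874444 to 22557047 counts per library, and single counts of the 10 genes ran from 57 for *BMP6* to 14347 for *HAMP*. TN replicate 1 stood apart from the other libraries, with a TMM factor of 1.33 and a summed level of 9 hepatocyte markers of 14182 CPM, where the other 8 cows had 46725 to 99640 CPM. The 13 mitochondrial protein-coding genes took 13.6 to 22.2% of the counts in TN, 6.90 to 7.79% in PF and 3.84 to 5.68% in HS cows, and their part in the results was tested only by leaving them out of the library sizes, which left the number of members called the same in each pair.

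*HAMP* was the only member that edgeR called between HS and TN cows. It had 529, 527 and 418 CPM in HS replicates 1 to 3 and 111, 99.9 and 51.9 CPM in TN replicates 1 to 3. Each HS cow thus had more than 3 times the level of any TN cow, and the levels in the HS group lay close together, with the highest 1.27 times the lowest. This gave a log2FC of 2.47 (SE 0.37, edgeR FDR 0.0919). DESeq2, the tool of the study, called it at an FDR of 1.66e-11. Across the 6 fits that left out 1 cow the log2FC stayed between 2.20 and 2.69, but the FDR was then between 0.106 and 0.343, so that no such fit called the gene, and neither did the fit of all 9 libraries or the test against a 1.5-fold change (glmTreat). Without TN replicate 1 the log2FC was 2.69 (FDR 0.106, edgeR).

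PF cows did not form 1 level of *HAMP*. PF replicate 2 had 683 CPM, the highest value of all 9 cows, while PF replicates 1 and 3 had 72.0 and 145 CPM. The first of these lay inside the range of the TN cows and the other a little above it. PF against TN cows had a log2FC of 1.77 (SE 0.68, edgeR FDR 0.708) with all cows and 0.31 without PF replicate 2. Against PF cows, the HS cows had a log2FC of 0.71 (SE 0.64, edgeR FDR 1.00), which was 2.18 (FDR 0.166) without PF replicate 2. As PF replicate 2 was singled out by its *HAMP* level, the values without it are a description only.

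The hepatocyte markers did not keep a fixed level across the cows, and *HAMP* was also set against them, a scale chosen after the data were seen. *ALB* gave most of the marker sum in each cow, so that the scale largely follows that gene. In TN replicate 1, *ALB*, *TTR*, *SERPINA1* and *CPS1* had their lowest levels of all 9 cows, but not all markers were low. *HNF4A* had 386 CPM there, against 426 and 421 CPM in TN replicates 2 and 3. *APOB* had 973 CPM, against 823 and 1194 CPM, and *APOA1* had 841 CPM, against 276 and 512 CPM. *ASGR1*, *TAT* and *HNF4A* were lowest within the TN group. Per 1000 CPM of the 9 markers, *HAMP* had 11.0, 11.3 and 4.20 CPM in HS replicates 1 to 3, and 7.83, 1.67 and 1.09 CPM in TN replicates 1 to 3. On this scale TN replicate 1, the cow with the low marker sum, lay inside the range of the HS cows, and the other TN cows lay below it. PF replicate 2 had 10.7 CPM, against 0.741 and 2.12 CPM in PF replicates 1 and 3. The difference of the mean log2 level between HS and TN cows was 2.55 for CPM and 1.73 on the marker scale, and between PF and TN cows it was 1.21 and 0.08. For *ID1*, TN replicate 1 had 4.05 CPM per 1000 CPM of the markers, above the 3.93, 3.32 and 1.31 CPM of HS replicates 1 to 3. For *ATOH8* it had 1.36 CPM, the highest of all 9 cows, against 1.13, 1.08 and 0.572 CPM in the HS cows. On this scale HS and TN cows thus overlapped in all 10 members, where they were apart in 8.11% of all genes. Without TN replicate 1 they were apart in 3 members, *HAMP*, *ID1* and *ATOH8*, all higher in HS cows, against 10.3% of all genes. HS and PF cows were apart in *ATOH8* and *HJV*, both higher in HS cows, against 4.77% of all genes, and PF and TN cows in *HJV*, *ATOH8* and *TFR2*, all lower in PF cows, against 35.3%. No test was made on this scale.

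**Figure D1:**
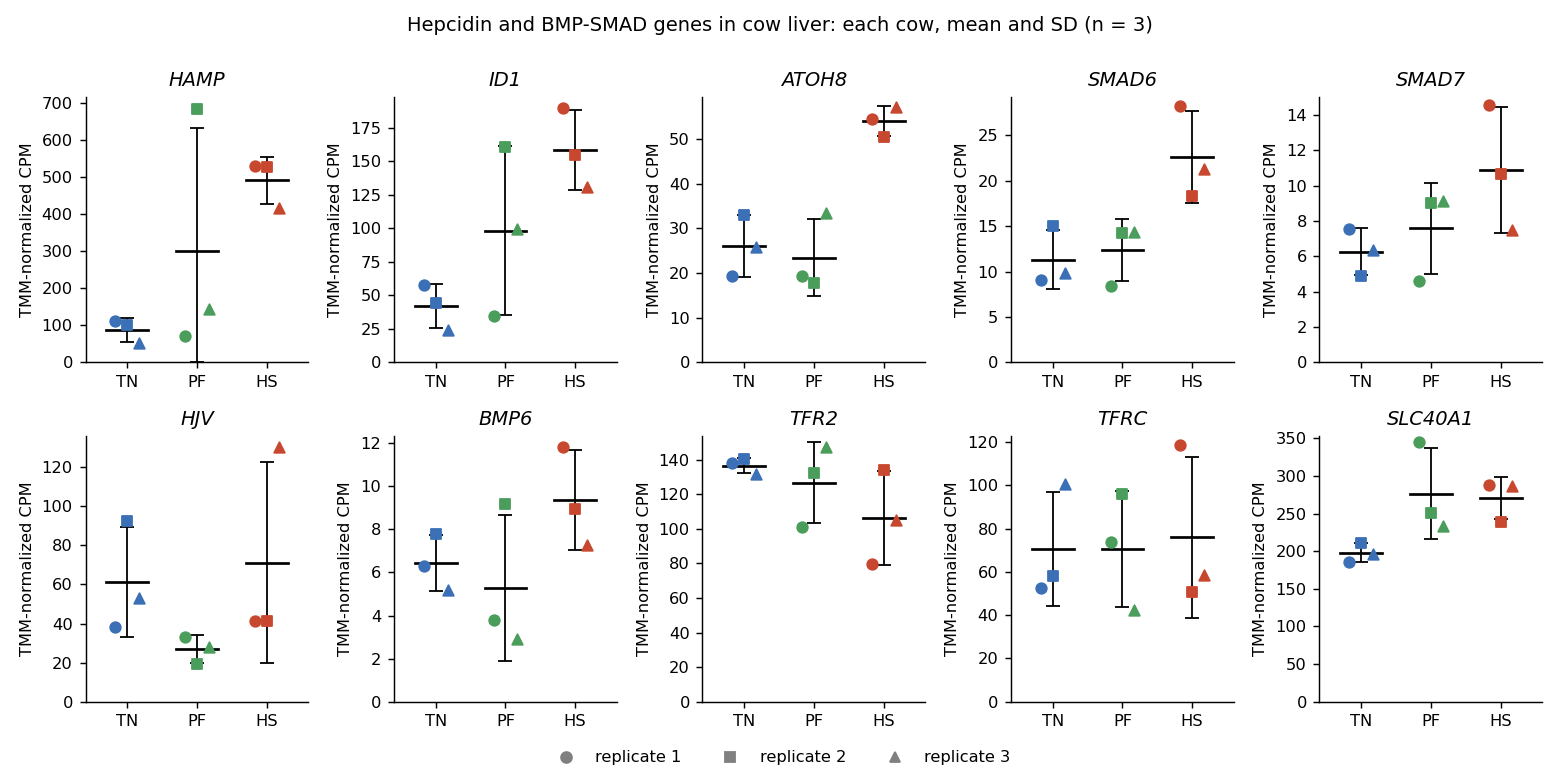
Level of each of the 10 genes in each cow, in TMM-normalized CPM on linear axes that start at 0, with TN, PF and HS cows from left to right and a marker shape for each replicate number. Long bars are group means and whiskers are 1 SD of n = 3, cut at 0 for *HAMP* in PF cows. On this scale the HS cows lie above all other cows for *ATOH8* and *SMAD6*, and PF replicate 2 is the highest cow for *HAMP* at 683 CPM.

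The targets that BMP-SMAD signaling induces together with *HAMP* had higher means in HS than in TN and PF cows, but none of these was called by edgeR. *ID1* encodes an inhibitor of basic helix-loop-helix transcription factors and is a direct SMAD target in hepatocytes. It had 190, 155 and 131 CPM in HS replicates 1 to 3, 57.4, 44.4 and 24.4 CPM in TN replicates 1 to 3, and 34.7, 161 and 99.5 CPM in PF replicates 1 to 3. In CPM, HS and TN cows were fully apart, which they were not relative to the hepatocyte markers, and PF replicate 2 lay among the HS cows. The log2FC of HS against TN cows was 1.89 (SE 0.35, edgeR FDR 0.166), with a p of 0.000331 before adjustment that ranked 29 among 14582 genes. DESeq2 called it at an FDR of 8.06e-06, and over the 15 alternatives tried the FDR ran from that value to 0.414. PF against TN cows gave a log2FC of 1.22 (SE 0.49, edgeR FDR 0.708), which was 0.67 without PF replicate 2. HS against PF cows gave 0.69 (SE 0.44, edgeR FDR 1.00), and 1.24 without PF replicate 2.

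*HAMP* and *ID1* can be compared within a library, where no scaling between libraries enters. There were 2.79, 3.40 and 3.20 counts of *HAMP* per count of *ID1* in HS replicates 1 to 3 and 1.93, 2.25 and 2.13 in TN replicates 1 to 3. PF replicates 1 to 3 had 2.07, 4.25 and 1.46. The balance of the 2 genes was thus tilted furthest toward *HAMP* in PF replicate 2 and in the 3 HS cows.

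*ATOH8*, a basic helix-loop-helix factor that binds the *HAMP* promoter, set the HS group apart from both others. Its levels were 54.5, 50.3 and 57.0 CPM in HS replicates 1 to 3, 19.2, 17.7 and 33.3 CPM in PF replicates 1 to 3, and 19.3, 33.0 and 25.9 CPM in TN replicates 1 to 3. The HS cows had a coefficient of variation of 6.29%, and in CPM the lowest of them lay above the highest of the other 6 cows. Relative to the hepatocyte markers, the HS cows stayed above the PF cows, and TN replicate 1 lay above the HS cows. Against TN cows *ATOH8* had a log2FC of 1.04 (SE 0.23, edgeR FDR 0.270), and against PF cows it was 2.30-fold higher (SE 0.27 on the log2 scale, edgeR FDR 0.315). DESeq2 called both, with FDRs of 0.0283 and 0.0172. Between PF and TN cows the log2FC was -0.15 (SE 0.31, edgeR FDR 0.905), and -0.33 without TN replicate 1. PF replicate 2, highest of all cows for *HAMP*, was the lowest of all cows for *ATOH8*.

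*SMAD6*, whose product blocks BMP receptor signaling, was also higher in CPM in each HS cow than in any other cow, though not relative to the hepatocyte markers. Its levels were 28.3, 18.3 and 21.3 CPM in HS replicates 1 to 3 and lay between 8.40 and 15.1 CPM in the 6 PF and TN cows, with no overlap. For HS cows the log2FC was 0.99 (SE 0.27, edgeR FDR 0.381) against TN and 0.87 (SE 0.28, edgeR FDR 0.668) against PF cows, and DESeq2 called neither. *SMAD7*, the broader inhibitor of BMP and TGF-beta signaling, averaged 10.9 ± 3.54 CPM in the HS, 7.57 ± 2.56 CPM in the PF and 6.27 ± 1.34 CPM in the TN group. HS and TN cows overlapped, and the log2FC was 0.78 (SE 0.32, edgeR FDR 0.504).

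Upstream of these targets, the ligand and the co-receptor varied in other ways. *BMP6* had 11.8, 8.94 and 7.26 CPM in HS replicates 1 to 3, 3.79, 9.16 and 2.90 CPM in PF replicates 1 to 3 and 6.30, 7.78 and 5.18 CPM in TN replicates 1 to 3. The groups overlapped in each comparison. PF replicate 2 had 2.74 times the mean of the other PF cows and was exceeded by HS replicate 1 alone. HS cows had a log2FC of 0.53 (SE 0.29, edgeR FDR 0.577) against TN and 0.83 (SE 0.42, edgeR FDR 0.960) against PF cows.

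*HJV* was lower in each PF cow than in any cow of the other groups. It had 33.4, 19.5 and 28.1 CPM in PF replicates 1 to 3, 38.3, 92.6 and 53.1 CPM in TN replicates 1 to 3 and 41.5, 41.3 and 130 CPM in HS replicates 1 to 3. HS and TN cows overlapped, and the cows with the most *HJV* were HS replicate 3 and TN replicate 2. PF against TN cows gave a log2FC of -1.19 (SE 0.35, edgeR FDR 0.693), and HS against PF cows gave 1.39 (SE 0.43, edgeR FDR 0.638). DESeq2 called the second of these at an FDR of 0.0865. Without HS replicate 3, which had the highest level of all cows, the log2FC of HS against PF cows was 0.62 (FDR 0.938, edgeR), and that of HS against TN cows turned from 0.20 (SE 0.48) to -0.58. Without TN replicate 1 the latter was -0.04.

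None of the iron receptors and the exporter was called in any comparison by edgeR or DESeq2. *TFR2*, which senses iron-loaded transferrin on hepatocytes, averaged 106 ± 27.1 CPM under heat, 127 ± 23.4 CPM under pair-feeding and 137 ± 4.35 CPM at thermoneutrality, with a log2FC of -0.38 (SE 0.27, edgeR FDR 0.641) for HS against TN cows. *TFRC*, the receptor for transferrin uptake whose transcript is stabilized in iron-poor cells, averaged 75.9 ± 37.3 CPM in the HS, 70.6 ± 26.9 CPM in the PF and 70.5 ± 26.3 CPM in the TN group. Its spread within groups was far larger than the differences between their means, and its log2FC values were 0.10 (SE 0.38) for HS against TN and 0.00 (SE 0.36) for PF against TN cows, with FDRs of 0.942 and 1.00 (edgeR). For HS against TN cows it was -0.06 without TN replicate 1, and ran from -0.38 to 0.44 over the fits that left out 1 cow.

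*SLC40A1* had 288, 239 and 287 CPM in HS replicates 1 to 3, 345, 250.3 and 234 CPM in PF replicates 1 to 3 and 186, 212 and 197 CPM in TN replicates 1 to 3. In CPM, each HS and each PF cow lay above each TN cow, and relative to the hepatocyte markers the groups overlapped. The log2FC was 0.44 (SE 0.27, edgeR FDR 0.599) for HS and 0.48 (SE 0.30, edgeR FDR 0.722) for PF against TN cows, and -0.03 (SE 0.27, edgeR FDR 1.00) for HS against PF cows. Macrophages are a main site of this exporter, and the summed level of 10 Kupffer cell and macrophage markers ran from 2296 to 3922 CPM in the HS, 1369 to 2168 CPM in the PF and 1581 to 3588 CPM in the TN group. Its part in the level of *SLC40A1* was not tested.

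Counted over the 10 members, 1 was called between HS and TN cows by edgeR, where 0.0892% of 14582 genes were called, and DESeq2 called 3 (*HAMP*, *ID1* and *ATOH8*), where it called 1.75% of 15414 genes. An unadjusted p under 0.05 was reached by 5 members, all higher in HS cows, where 9.36% of all genes reached it. The CPM ranges of HS and TN cows were apart in 5 members, *HAMP*, *ID1*, *ATOH8*, *SMAD6* and *SLC40A1*, where they were apart in 16.1% of all genes. The median log2FC was 0.65 over the members and -0.01 over all genes.

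Between HS and PF cows, edgeR called 0 members, where 0.0276% of 14510 genes were called, and DESeq2 called 2 (*ATOH8* and *HJV*), where it called 0.771% of 15815 genes. An unadjusted p under 0.05 was reached by 3 members, *ATOH8*, *SMAD6* and *HJV*, where 5.32% of all genes reached it. The same 3 members had no overlap, against 10.5% of all genes. Between PF and TN cows, edgeR called 0 members and 0% of 14580 genes, and DESeq2 called 0 members and 0.555% of 16411 genes. An unadjusted p under 0.05 was reached by 3 members, with *HAMP* and *ID1* higher and *HJV* lower in PF cows, where 6.88% of all genes reached it. *HJV* and *SLC40A1* did not overlap, against 13.2% of all genes.

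A single edgeR test of the 3 groups together called 0 of the 10 members, where 0.0464% of 15073 genes had an FDR under 0.1. An unadjusted p under 0.05 was reached by 5 members, *HAMP*, *ID1*, *ATOH8*, *SMAD6* and *HJV*, where 7.86% of all genes reached it. The smallest p belonged to *ATOH8* (FDR 0.229, edgeR). Without PF replicate 2 the same test gave *HAMP* an FDR of 0.0789 (edgeR), where 11 of 15559 genes had an FDR under 0.1. That cow was singled out by its *HAMP* level, so that leaving it out selects on the value tested. The likelihood ratio test of DESeq2 on all 9 cows called *ID1* and *ATOH8*, where it called 1.89% of 15387 genes. The 3 pairwise comparisons share cows and are not independent of each other.

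**Figure D2:**
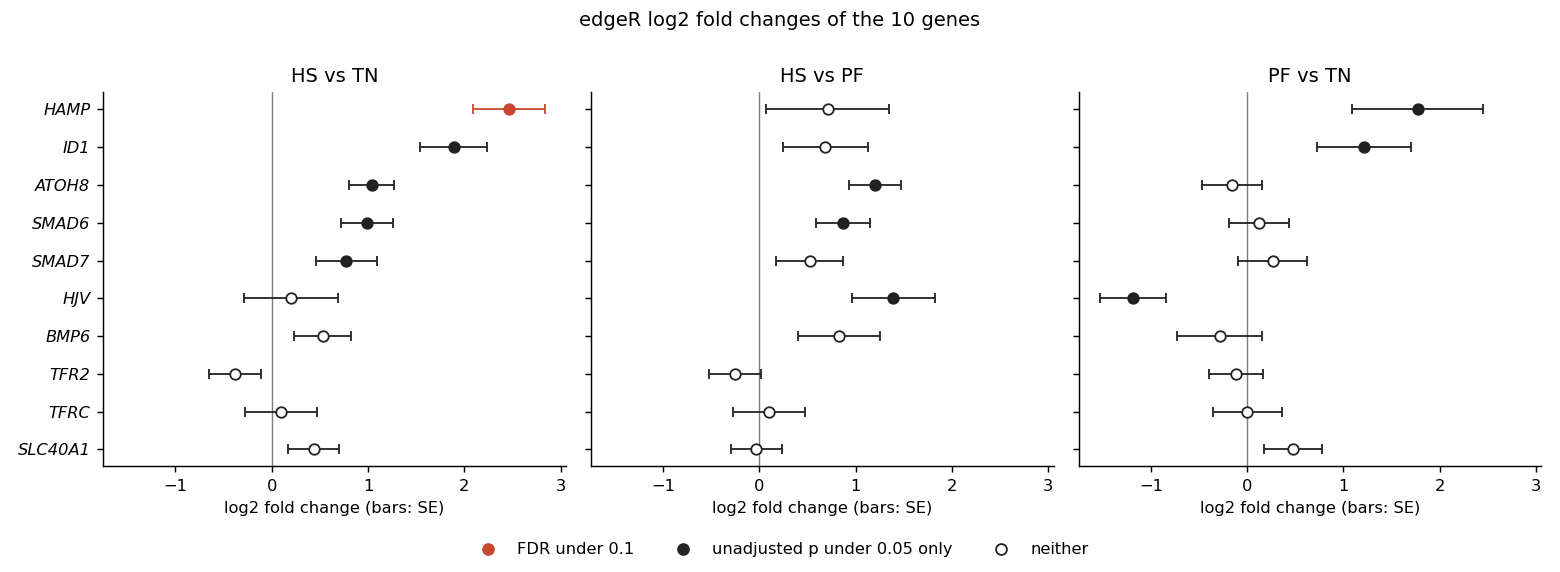
Log2 fold changes from edgeR for the 10 genes in HS against TN, HS against PF and PF against TN cows, with whiskers of 1 SE. A filled red point has an FDR under 0.1, a filled black point an unadjusted p under 0.05 only. *HAMP* at 2.47 is the only red point, and *ATOH8* and *SMAD6* are filled in both comparisons of the HS group and near 0 for PF against TN cows.

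The members also differed in how closely they followed *HAMP* from cow to cow. Pearson's r and Spearman's rho of log2 CPM (offset 0.5) over the 9 cows are given as a description. The cows form 3 groups and share 1 normalization, so that differences between groups enter the values. *ID1* had r = 0.96 and rho = 0.98, and it ranked 2 among 15072 genes for its r with *HAMP*. As deviations from the group means, its r was 0.90. *SMAD6* had r = 0.77 (rho = 0.60, rank 149), *SMAD7* had r = 0.75 (rho = 0.78, rank 220) and *BMP6* had r = 0.69 (rho = 0.73, rank 424). The deviations from the group means gave r = 0.50 (rank 1807) for *SMAD6*, 0.53 (rank 1568) for *SMAD7* and 0.82 (rank 161) for *BMP6*. *ATOH8* had r = 0.47 (rho = 0.27, rank 1876) with all cows, r = 0.88 (rank 44) without PF replicate 2 and r = -0.29 as deviations from the group means. The other members had r between -0.30 for *TFR2* and 0.32 for *SLC40A1*. Over all genes the median r was 0.01.

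The 8 genes most like *HAMP* by this measure were *GPATCH4*, *ID1*, *TAGLN2*, *FAM110C*, *C15H11orf49*, *CRNKL1*, *INSL3* and *LOC100848357*, with r from 0.98 to 0.91 over the 9 cows. *INSL3* lay near the floor, with 0 counts in the TN cows and PF replicate 1 and at most 42 counts in any cow. With an offset of 2 its r was 0.87. *C15H11orf49* had as few as 13 counts. *GPATCH4*, at the top, ranged from 4.17 to 7.60 CPM, a 1.82-fold range, where *HAMP* had a 13.2-fold and *ID1* a 7.79-fold range. A gene can thus rank high here with a small change of level, and the only member among the 8 was *ID1*.

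**Figure D3:**
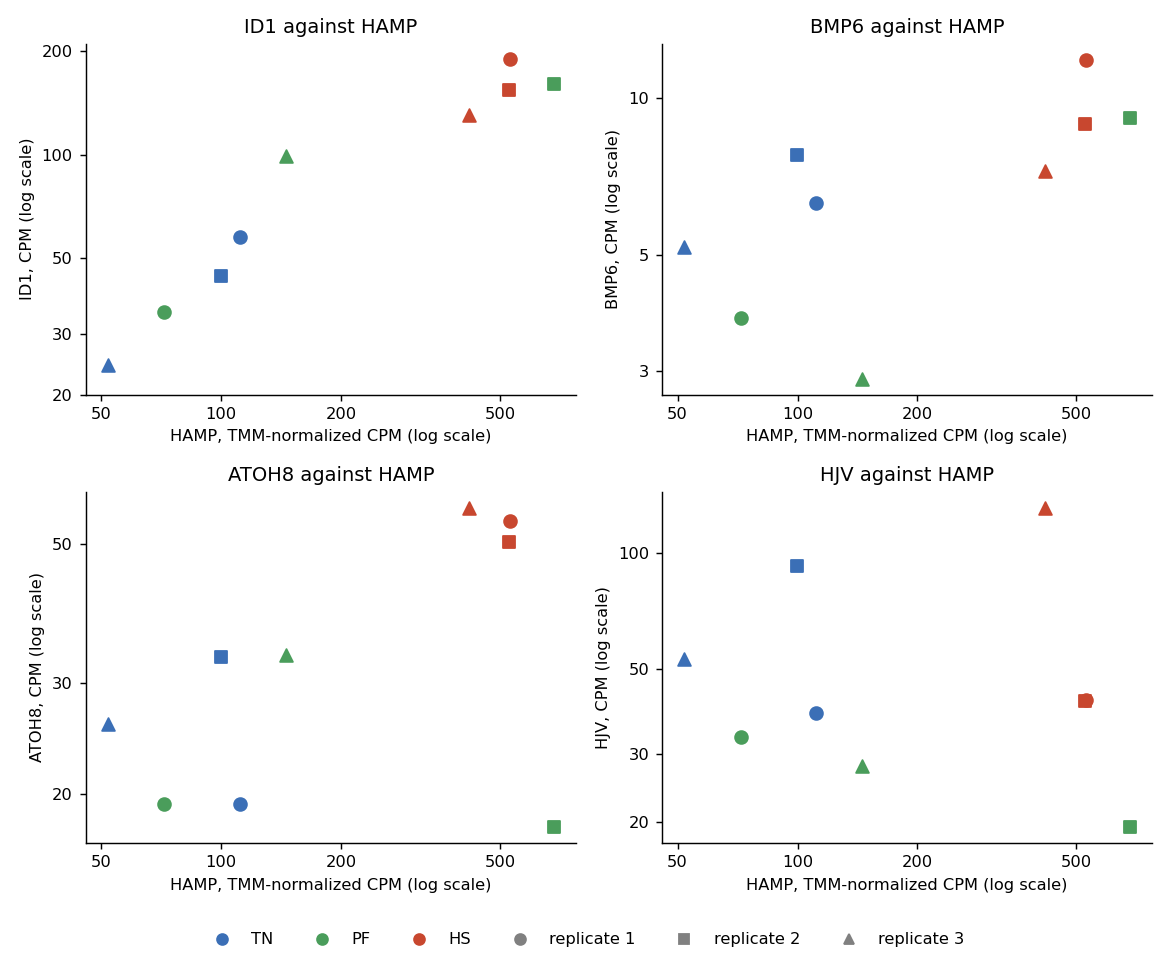
Level of *ID1*, *BMP6*, *ATOH8* and *HJV* against that of *HAMP* in each of the 9 cows, in TMM-normalized CPM with both axes on a log scale. Colors give the group and shapes the replicate number. *ID1* runs along a line with *HAMP* (r = 0.96), while PF replicate 2, the green square at the right, has the lowest *ATOH8* and *HJV* of all cows.

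PF replicate 2 was thus set apart within the pathway. It held the highest *HAMP*, with 6.29 times the mean of the other PF cows, and ranked 2 of the 9 cows for both *ID1* and *BMP6*. It ranked 9, the lowest, for *ATOH8* and *HJV*, at 0.674 and 0.635 times the mean of the other PF cows, and ranked 6 for *SMAD6* and 4 for *SMAD7*. In the HS cows, high *HAMP* and *ID1* stood beside high *ATOH8* and *SMAD6*. With 1 cow of this kind, no test of the difference was possible.

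Other genes of iron handling were read from 5 lists with 68 genes outside the 10 members, and edgeR called 0 of these in each of the 3 comparisons. Between HS and TN cows 66 were tested and 4 reached an unadjusted p under 0.05, all higher in HS cows, and DESeq2 called 2, *HMOX1* and *CREB3L3*. The 4 made up a smaller share than the 9.36% of all genes, and the median log2FC was 0.25. Between HS and PF cows 65 were tested and 4 reached it, against 5.32% of all genes, with 2 higher and 2 lower, and DESeq2 called *HMOX1*. Between PF and TN cows 65 were tested and 4 reached it, against 6.88% of all genes, with 3 higher and 1 lower, and DESeq2 called 0. *IL6* had 0 counts in each cow.

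*HMOX1* encodes heme oxygenase, which frees iron from heme. It had 242, 124 and 296 CPM in HS replicates 1 to 3, against 76.5 to 97.2 CPM in PF and 56.1 to 104 CPM in TN cows, so that each HS cow exceeded all others. Its log2FC was 1.53 (SE 0.38, edgeR FDR 0.315) against TN and 1.35 (SE 0.32, edgeR FDR 0.377) against PF cows. *SLC48A1*, a heme transporter, averaged 28.6 CPM in the HS, 22.6 CPM in the PF and 15.2 CPM in the TN group, with a log2FC of 0.90 (SE 0.34, edgeR FDR 0.487) for HS against TN cows, and 0.58 without TN replicate 1. *PCBP1*, an iron chaperone of the cytosol that was named after its values were seen, had 0.69 (SE 0.30, edgeR FDR 0.518). Macrophages express *HMOX1* and *SLC48A1* strongly. The 10 macrophage markers were all higher in HS than in PF cows, with a median log2FC of 0.87, 9 of 10 had an unadjusted p under 0.05, which 5.32% of all genes had, and 0 were called by edgeR or DESeq2. Their part in the levels of these genes was not tested.

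Of the genes that sense iron or carry the BMP signal, 17 were tested and 0 reached an unadjusted p under 0.05 between HS and TN cows. The nearest was *SMAD1*, a receptor-activated SMAD, averaging 27.5 CPM in the HS, 39.1 CPM in the PF and 19.3 CPM in the TN group. Its log2FC was 0.50 (SE 0.23, edgeR FDR 0.526) for HS and 1.02 (SE 0.27, edgeR FDR 0.616) for PF against TN cows, and each PF cow exceeded each cow of the other groups. Of 7 other BMP-SMAD targets 0 reached it, and *ID3*, closest in kind to *ID1*, had a log2FC of 0.59 (SE 0.27, edgeR FDR 0.522) for HS against TN cows with overlapping groups. *TMPRSS6*, the hepatocyte protease that cleaves hemojuvelin, was named after its values were seen. It lay lower in each HS than in each TN cow, at 187 ± 25.8 against 260 ± 24.9 CPM, with a log2FC of -0.50 (SE 0.27, edgeR FDR 0.576), and PF cows at 214 ± 24.2 CPM overlapped both groups.

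Of the genes that carry inflammatory signals to *HAMP*, 10 were tested between HS and TN cows and 9 had a positive log2FC, with a median of 0.38. Over all genes 7186 of 14582 were positive. An unadjusted p under 0.05 was reached by 1 of the 10, where 9.36% of all genes reached it. *CREB3L3*, a transcription factor of the hepatocyte endoplasmic reticulum that can bind the *HAMP* promoter, had 76.4, 117 and 91.7 CPM in HS replicates 1 to 3 and 41.7 to 52.1 CPM in TN cows. The log2FC was 0.96 (SE 0.24, edgeR FDR 0.322). PF cows overlapped both groups, with 144 CPM in PF replicate 3 and 47.9 and 50.4 CPM in PF replicates 1 and 2. PF replicate 2, with the most *HAMP*, was thus low in *CREB3L3*, but other genes of this list, named after their values were seen, varied in that cow. *STAT3* at 148 CPM and *SOCS3* at 25.6 CPM were the highest of all cows there, while *IL6R* at 8.94 CPM was the lowest of the PF cows. The part of these genes in the level of *HAMP* was not tested. In the list of iron regulatory proteins and hypoxia factors 0 of 10 genes reached an unadjusted p under 0.05 between HS and TN cows, and the nearest was *ARNT* with a log2FC of -0.69 (SE 0.34, edgeR FDR 0.537), which was -0.39 without TN replicate 1.

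**Figure D4:**
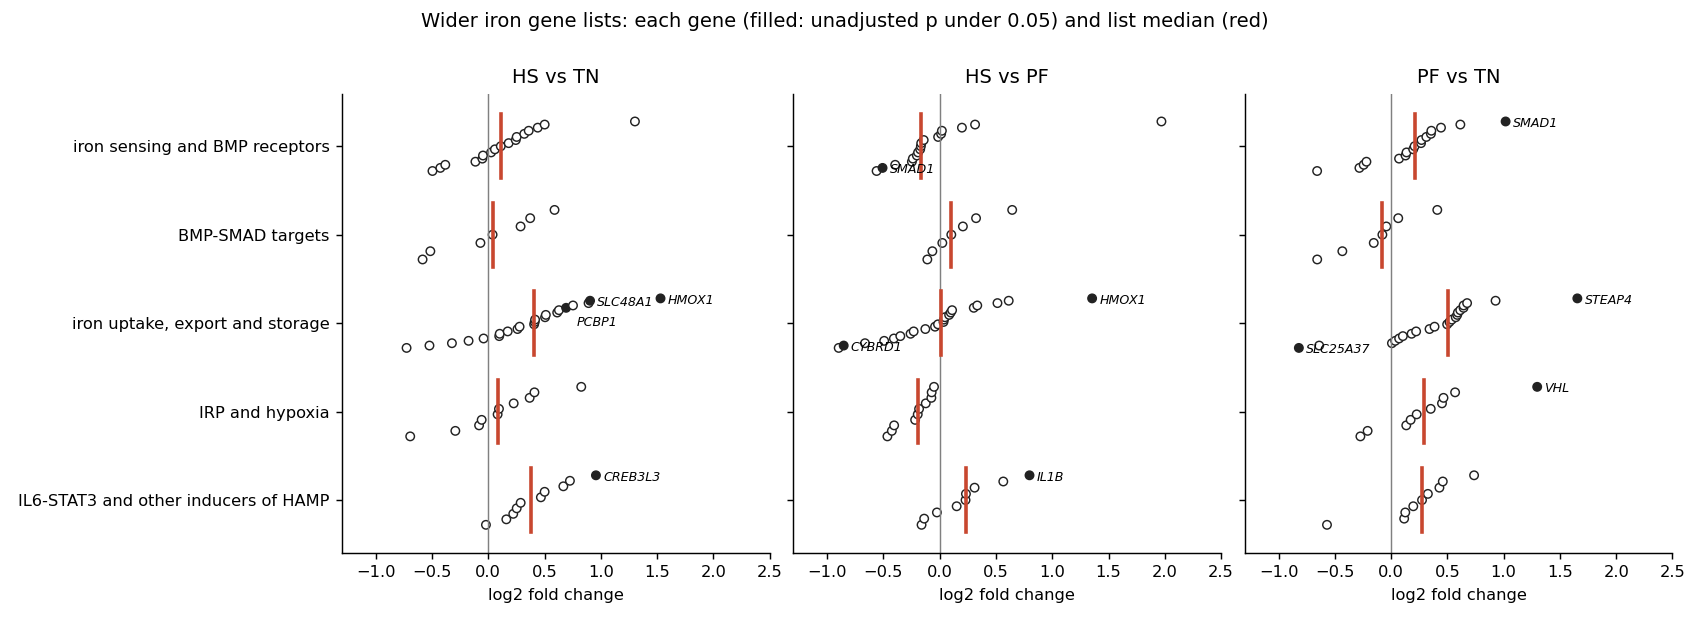
Log2 fold change of each tested gene in 5 lists of iron handling genes outside the 10 members, in 3 comparisons, with the list median as a red bar. Filled and labelled points have an unadjusted p under 0.05. *HMOX1*, at 1.53 and 1.35, is the filled point furthest to the right in both comparisons of the HS group, and the list medians lie between -0.19 and 0.51.

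The remaining genes with an unadjusted p under 0.05 were named after their values were seen. They were *IL1B*, higher, and *SMAD1* and *CYBRD1*, lower, in HS than in PF cows, and *VHL* and *STEAP4*, higher, and *SLC25A37*, lower, in PF than in TN cows. *STEAP4*, a metalloreductase, had a log2FC of 1.65 (SE 0.74, edgeR FDR 0.708) for PF against TN cows. PF replicate 2 had 191 CPM of *STEAP4*, against 40.6 and 19.1 CPM in PF replicates 1 and 3 and 8.49 to 38.6 CPM in TN cows, and without PF replicate 2 the log2FC was 0.17. *SLC25A37*, which brings iron into mitochondria, had -0.82 (SE 0.33, edgeR FDR 0.708).

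Markers of other cells were summed in each cow as a check of the tissue. The defining hepatocyte genes were abundant in each library, with *ALB* the highest of the 9 in each cow. The 9 markers of sinusoidal endothelium, the cells that make BMP6, ran from 809 to 1254 CPM in the HS, 901 to 1177 CPM in the PF and 804 to 1114 CPM in the TN group, with all groups overlapping. The 8 erythroid markers summed to between 0.592 and 23.2 CPM, 3 of them were at 0 in every cow of each group, and the sums were lower in HS and PF than in TN cows. The 4 neutrophil markers ran from 42.8 to 131 CPM in HS and 18.9 to 37.7 CPM in TN cows, with no overlap, and from 11.1 to 57.3 CPM in PF cows. In the PF group, replicate 2 had the highest neutrophil sum and also the most *HAMP*. Between HS and TN cows edgeR called 0 genes of these lists. An unadjusted p under 0.05 was reached by 0 of 9 hepatocyte, 0 of 9 endothelial, 1 of 10 macrophage, 2 of 4 neutrophil and 1 of the 2 tested erythroid markers, against 9.36% of all genes, and DESeq2 called 1 macrophage, 2 neutrophil and 1 erythroid marker. In lists of stellate cells and fibroblasts, T and NK cells, B and plasma cells and cholangiocytes, it was reached by 1 of 7, 0 of 4, 0 of 3 and 0 of 4 markers, and DESeq2 called 0. The part of these cells in the levels of the 10 genes was not tested.

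**Figure D5:**
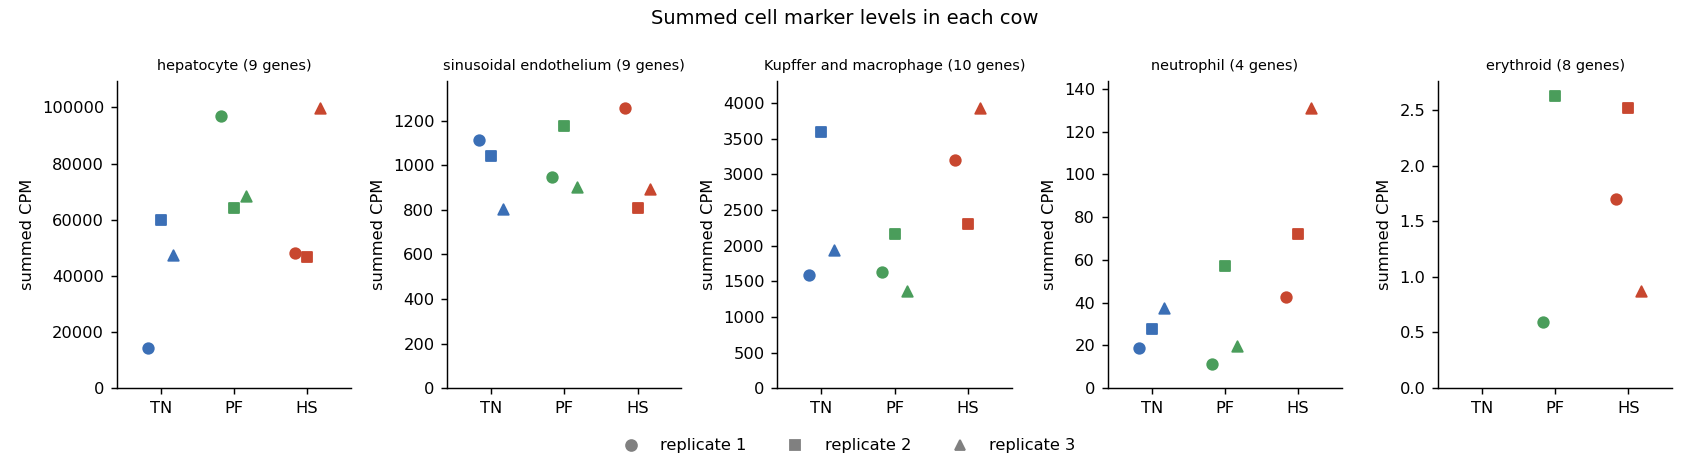
Summed CPM of 5 marker lists by cow, on linear axes that start at 0 and end just above the highest HS cow, by group and with a marker shape for each replicate number. In the erythroid panel the TN cows, at 4.14 to 23.2 CPM, and PF replicate 3, at 3.21 CPM, lie beyond the axis and are not shown. TN replicate 1 is the lowest cow for the hepatocyte markers at 14182 CPM, and the neutrophil sums of the HS cows lie above those of the TN cows.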

How the data were processed

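Liver RNA of 9 cows, 3 per group, was sequenced as paired-end poly(A) libraries. The authors filtered reads with fastp 0.23.2, aligned them to ARS-UCD1.2 with STAR 2.7.9a and counted them per gene with featureCounts 2.0.3. The deposited values are raw counts without normalization. The annotation release and the strand and multi-mapping settings were not given in the sources used here. Totals were 16874444 to 22557047 counts per library, and 0 columns were left out.

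For a comparison the 6 libraries concerned were fitted alone, over all genes past filterByExpr, with edgeR 4.0.16 in R 4.3.3, with TMM factors and a quasi-likelihood F test. The SE is the size of the log2 fold change divided by the square root of F. DESeq2 1.42.0, other factors, filters and thresholds, a replicate block and each cow left out were alternatives. The code was checked on simulated counts. The 10 members, the wider iron lists, the marker lists and the rule for naming genes were chosen with earlier results of these data known. Named were all members, from each wider list the genes called by edgeR or, failing that, up to 2 with the largest change at an unadjusted p under 0.05 between HS and TN cows or the 1 with the smallest p, and the 8 genes most like *HAMP*. Each of the 10 symbols matched RefSeq (ARS-UCD2.0), in which an uncharacterized locus overlaps *TFR2* and another, with a tRNA gene, overlaps *SMAD6*. That assembly is later than the one used for alignment, so no positions or sequences are given.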

Additional observations from a re-analysis of the deposited data

How the results depend on the processing

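With 3 cows per group the number of members called depended on the test and on single cows. Between HS and TN cows 1 member was called, and the number was 3 with DESeq2, 2 without a filter on low counts, 2 with the replicate block, and 0 with all 9 libraries in 1 fit, with an FDR under 0.05, with glmTreat and in each fit that left out 1 cow. Between HS and PF cows the number was 2 with DESeq2 and 2 without the filter, in place of 0, and between PF and TN cows it was 2 without the filter. For the 3 groups together it was 2 with DESeq2, 3 without the filter and between 0 and 1 with 1 cow left out. Of the wider iron genes, DESeq2 called 2 between HS and TN and 1 between HS and PF cows, and the fit without the filter called 1 in each comparison. Over all genes the calls between HS and TN cows, 13, ran from 0 to 270, and those between HS and PF cows, 4, up to 122, both highest with DESeq2. The calls between PF and TN cows, 0, ran up to 136, with 91 in DESeq2. For the 3 groups together DESeq2 called 291 of 15387 genes. For the fits without the filter the number over all genes is not given here. A rise in members there cannot be told from a rise over all genes. The labels do not state whether same-numbered cows were matched. Of the 9 same-numbered pairs, 3 had a correlation of deviations over 0.1, and 3 of 9 had their highest correlation with their own number. With 3 cows per group these correlations cannot decide whether cows were matched. The block took the calls over all genes between HS and TN cows to 33.

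Of 450 values of the 10 members, 20 changed sign, all of genes that were not called. In the fits without 1 of the cows, the log2 fold change for HS against TN cows ran from -0.58 to 0.63 for *HJV* and from -0.38 to 0.44 for *TFRC*, that of HS against PF cows from -0.39 to 0.39 for *TFRC* and from -0.14 to 0.16 for *SLC40A1*, and that of PF against TN cows from -0.49 to 0.057 for *ATOH8*, -0.0074 to 0.39 for *SMAD6*, -0.94 to 0.025 for *BMP6*, -0.22 to 0.033 for *TFR2* and -0.28 to 0.35 for *TFRC*. For PF against TN cows *TFRC* also had 0.014 with DESeq2, 0.012 with RLE factors, 0.0071 without the filter and 0.0020 with all 9 libraries. The r with *HAMP* turned to -0.29 for *ATOH8*, 0.31 for *TFR2* and -0.53 for *SLC40A1* as deviations from group means, and to 0.17 for *HJV* and -0.044 for *TFRC* without PF replicate 2. The cause was not tested.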
